A study of Mus musculus with 6 samples.

Results

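The genes described here encode the Wnt ligands, their Frizzled receptors and co-receptors, and the secreted proteins that restrain them, measured in the hearts of mice without the melanocortin-4 receptor and of wild-type mice. The members were the protein-coding genes whose name begins with Wnt, Fzd, Sfrp or Dkk followed by a digit, together with Frzb, Wif1, Lrp5, Lrp6, Axin2 and Lgr4. This rule gave 43 of the 54532 genes in the table. They were 19 ligands, 10 Frizzled receptors, 6 secreted inhibitors that bind Wnt, 4 Dkk genes, Axin2 and 3 genes grouped as co-receptors. Of those 3, Lrp5 and Lrp6 are co-receptors, and Lgr4 is a receptor for R-spondins. The rule used names only and no expression value.

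Polyadenylated RNA was sequenced from 3 mice homozygous for the Mc4r knockout (Mc4r KO) and 3 wild-type littermates (WT), all male, 12 weeks of age and on the C57B/6/N background. The knockout is present in the whole animal from conception, so the heart was not the only organ without the receptor. The mice came from matings between heterozygotes, and each library was 1 mouse. The tissue is named heart in one label and muscle in another, and left ventricle in the study's discussion. The question of the study was how loss of Mc4r affects gene expression in the heart of a young mouse.

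Wnt ligands are secreted glycoproteins that bind Frizzled receptors on nearby cells. Together with the co-receptors Lrp5 and Lrp6 they stop the destruction of beta-catenin, which then enters the nucleus and activates genes with TCF and LEF factors, while other Wnt ligands act on cell polarity and calcium without beta-catenin. Secreted Frizzled-related proteins and Wif1 catch Wnt outside the cell, and most Dkk proteins block the co-receptors. In the heart the pathway is best known for its part in development, in the valves and vessels, and in fibroblasts after injury, and it is held at a low level in the healthy adult.

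Reads assigned to genes ranged from 14767929 to 16047003 per WT library and from 14691076 to 15649074 per Mc4r KO library. Values are given as FPKM, in which the authors divided the fragments of a gene by its length in kilobases. The fragments were also scaled to a total per library, so that levels can be compared between genes. The total that the values imply was not the number of reads assigned to genes. For WT replicates 1 and 3 and Mc4r KO replicate 1 it was 1.41e+07, 1.70e+07 and 1.55e+07, against 14767929, 16047003 and 14691076 assigned reads. How it was set is not given in the sources used here. For a gene of 1 kb, 3 reads correspond here to an FPKM between 0.176 and 0.213, which covers counting error only. Mc4r itself had 2 reads in WT replicate 3 and 0 in the other 5 libraries, so that the genotype could not be checked from it. WT replicate 3 stood apart from the other WT libraries: its log2 values correlated with those of WT replicates 1 and 2 at 0.946 and 0.952 and with those of Mc4r KO replicate 1 at 0.962 (Pearson, across 11297 genes, which are not independent). The mitochondrial chromosome took 47.1% to 59.3% of all FPKM in WT and 43.0% to 46.6% in Mc4r KO. The groups did not overlap in this share, so that the fits below with it as a covariate cannot fully tell it apart from genotype. The cardiomyocyte markers Myh6, Actc1, Tnnt2, Tnni3, Ryr2 and Myl2 summed to 12083, 12341 and 11819 FPKM in WT and to 14411, 15909 and 15182 in Mc4r KO, without overlap. Of the 6, 2 were higher in Mc4r KO before adjustment, Actc1 and Ryr2, while the groups overlapped for Myh6, Tnnt2 and Tnni3. Actc1, the most abundant of the 6, had a mean of 5178 FPKM in WT and 7539 in Mc4r KO. The skeletal muscle markers summed to at most 1.49 FPKM. No marker of any cell type examined was called, and those of B cells summed to 1.19 to 2.80 FPKM in WT and 0.422 to 0.590 in Mc4r KO and those of adipocytes to 0.467 to 1.02 and 0.0283 to 0.328.

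Of the 43 members, 27 had a mean FPKM of at least 0.1 over the 6 libraries and were tested. None of the 27 differed between Mc4r KO and WT at the threshold of a call, which was an adjusted p under 0.05 in limma and an absolute log2 fold change above 0.75. In all, 83 of 18035 genes tested (0.460%) were called, 57 higher and 26 lower in the Mc4r KO hearts. Before adjustment, 2 members were higher in the Mc4r KO hearts at p under 0.05, the co-receptor gene Lrp5 and the ligand gene Wnt9b. The members that were lower before adjustment were 3 in number, the inhibitor genes Wif1 and Sfrp1 and the ligand gene Wnt5b. These are 7.41% and 11.1% of the members tested, beside 12.0% higher and 8.83% lower among all genes tested, and both shares of members lie near or below the background. The libraries of the groups did not overlap for 2 members that were higher (14.1% of all genes tested) and 4 that were lower (12.4% of all genes tested), the fourth being Lrp6. The median log2 fold change, Mc4r KO minus WT, was -0.05 over the members tested and -0.01 over all genes tested, with 13 members above 0 and 14 below. When the values were scaled instead to the sum outside the mitochondrial chromosome, the median over all genes became -0.19 and the calls were 16 higher and 25 lower. No member was called in that scaling either, and Lrp6 joined the members that were lower before adjustment.

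**Figure D1:**
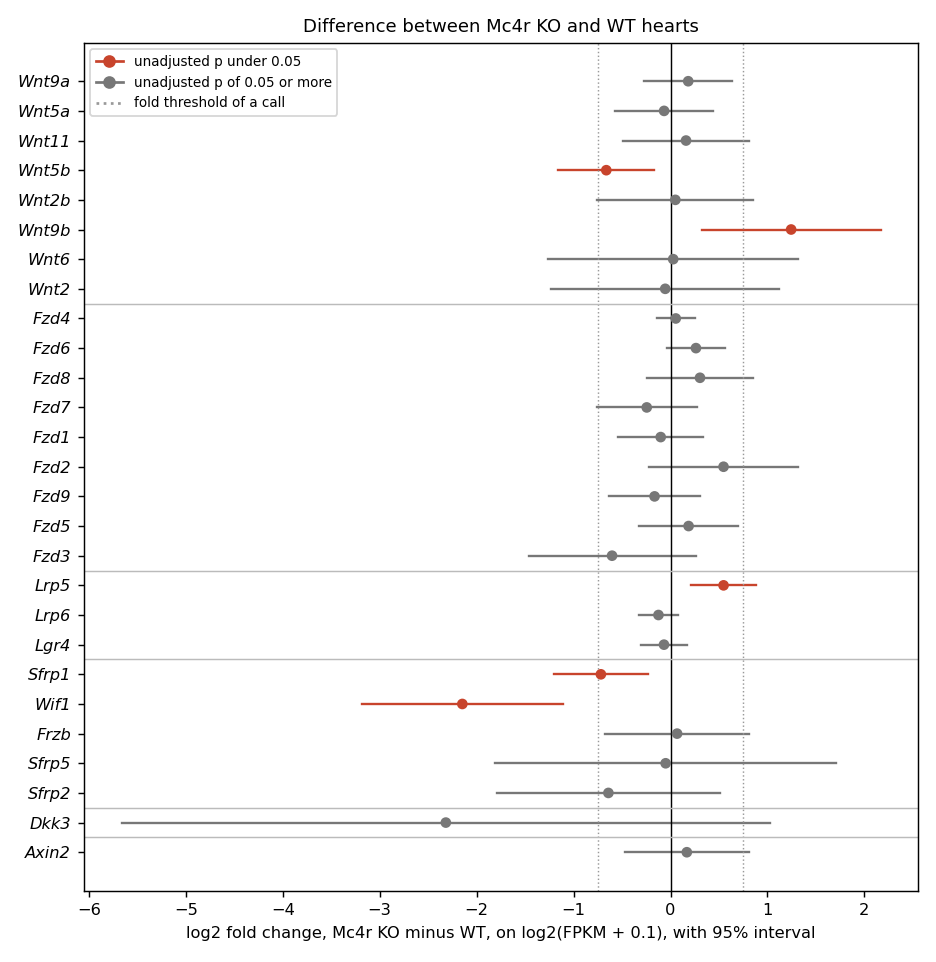
The plot gives the log2 fold change, Mc4r KO minus WT, on log2(FPKM + 0.1) for the 27 members tested, with the 95% interval from limma as a line; grey rules separate ligands, receptors, co-receptors, Wnt-binding inhibitors, Dkk3 and Axin2. The 5 members in red had an unadjusted p under 0.05, and the interval of Dkk3 is the widest, from -5.66 to 1.03.

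The stretches upstream of the start are shown for Wif1 and Wnt9b, the members with the lowest and the highest fold change among those with p under 0.05 before adjustment, and for Wnt5b, at the one of its 3 listed starts with a match to the TCF and LEF core; the table has no entry for Sfrp1 and Lrp5. They come from RefSeq on GRCm38.p6, are written 5′ to 3′ on the strand of the gene, and leave out bases that GENCODE M21 places in an exon of the gene. Capitals mark CTTTGAT, the core that TCF and LEF factors bind. The Wif1 stretch lies at chr10:121033754-121033959 on the plus strand, that of Wnt9b at chr11:103749822-103750071 on the minus strand, and that of Wnt5b at chr6:119449387-119449636 on the minus strand, before a start that lies inside the gene.
Wif1: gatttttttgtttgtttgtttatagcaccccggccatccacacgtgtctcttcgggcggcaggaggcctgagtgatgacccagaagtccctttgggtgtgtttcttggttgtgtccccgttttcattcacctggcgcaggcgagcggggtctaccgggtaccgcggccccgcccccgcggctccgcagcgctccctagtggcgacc
Wnt9b: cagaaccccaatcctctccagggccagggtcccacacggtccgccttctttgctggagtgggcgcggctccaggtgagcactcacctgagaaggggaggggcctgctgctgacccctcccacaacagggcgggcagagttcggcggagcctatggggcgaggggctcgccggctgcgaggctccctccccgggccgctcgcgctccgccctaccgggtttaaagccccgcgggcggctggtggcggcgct
Wnt5b: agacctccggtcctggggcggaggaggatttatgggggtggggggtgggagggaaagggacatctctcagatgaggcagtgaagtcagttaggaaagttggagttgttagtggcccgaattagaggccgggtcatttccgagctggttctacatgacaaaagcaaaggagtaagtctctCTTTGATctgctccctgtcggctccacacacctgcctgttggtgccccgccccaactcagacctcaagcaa

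The core CTTTGAT was searched on both strands (ATCAAAG on the other) in windows from 250 bases before to 50 bases after each start. The table of windows held 32 for 29 of the 43 members. The core stood in 2 of the 32 windows (6.25%), at 51 bases before a start of Wnt11 and at 71 bases before the start of Wnt5b shown above, and in 1225 of 32851 windows of all genes (3.73%). The windows of the members held more G and C than those of all genes, with medians of 66.5% and 52.7%. A match is a description of the letters and not evidence of binding.

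Ligand genes were expressed at low levels. Of the 19, 4 (Wnt1, Wnt3, Wnt3a and Wnt10a) had no read in any library, and 8 reached the mean FPKM of 0.1. Summed over all 19, the ligands came to 6.49, 7.22 and 10.1 FPKM in WT and to 7.59, 7.60 and 8.24 in Mc4r KO (here and below in the order of the replicate numbers), so that the groups overlapped. The median log2 fold change of the 8 ligands tested was 0.04.

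Wnt9b, a ligand known from kidney development and from the endothelium of developing heart valves, was the ligand with the highest fold change (ENSMUSG00000018486; chromosome 11, 103727364 to 103749821, mm10). Its FPKM was 0.0628, 0.123 and 0.0650 in WT and 0.499, 0.219 and 0.317 in Mc4r KO. The lowest Mc4r KO library exceeded the highest WT library, at a low level: the WT values rest on 4, 8 and 5 reads and the Mc4r KO values on 35, 15 and 23. The mean was 0.0837 ± 0.0343 in WT and 0.345 ± 0.142 in Mc4r KO (SD, n = 3 each), a ratio of 4.12. The log2 fold change on log2(FPKM + 0.1) was 1.24 ± 0.39 (SE), with p = 0.0151 before and 0.146 after adjustment in limma and p = 0.1 in the exact permutation test, the smallest value that 3 libraries against 3 allow. The fold change depends on the constant added at this low level: it was 0.31 with a pseudocount of 1, 1.90 with 0.01 and 1.95 in limma voom on the reads. With the mitochondrial share as a covariate Wnt9b no longer had p under 0.05 before adjustment, but the groups do not overlap in that share.

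Wnt5b, which acts largely without beta-catenin, was lower in the Mc4r KO hearts before adjustment (ENSMUSG00000030170; chromosome 6, 119432531 to 119544347). It had 1.31, 1.65 and 1.70 FPKM in WT and 1.19, 0.719 and 0.963 in Mc4r KO. The groups did not overlap in FPKM, but the highest Mc4r KO library and the lowest WT library lay close to each other. The values rest on 49, 63 and 77 reads in WT and on 49, 29 and 41 in Mc4r KO. The gap between WT replicate 1 and Mc4r KO replicate 1, with 49 reads each, thus comes from the FPKM scale. The difference was -0.66 ± 0.21 (SE) on the log2 scale, with p = 0.0158 before and 0.148 after adjustment in limma and an exact permutation p of 0.1. The unadjusted p was 0.0595, 0.0596 and 0.0527 in limma without WT replicate 3, WT replicate 2 or Mc4r KO replicate 2.

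The most abundant ligands were Wnt9a and Wnt5a, and neither differed beyond the spread of the libraries. Wnt9a, a ligand with known parts in joint formation and in the making of blood stem cells, had 1.64, 2.13 and 2.51 FPKM in WT and 1.94, 2.57 and 2.62 in Mc4r KO. The groups overlapped, and the log2 fold change had a 95% interval from -0.27 to 0.64 (adjusted p = 0.626, limma). Wnt5a, the best known ligand that acts without beta-catenin, had 1.44, 1.39 and 2.33 FPKM in WT and 1.42, 1.73 and 1.66 in Mc4r KO, with WT replicate 3 above the other 5 libraries. Its log2 fold change was -0.07, with a 95% interval from -0.57 to 0.44 (adjusted p = 0.893, limma), and 4.58% of its exonic bases overlap an exon on the other strand.

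The remaining ligands tested were Wnt11, Wnt2b, Wnt6 and Wnt2. Wnt11, which guides cell movement in the forming heart tube, ranged from 1.01 to 2.19 FPKM in WT and from 1.34 to 1.91 in Mc4r KO. Its exons overlap an exon on the other strand over 8.80% of their length, and how reads on the 2 strands were counted is not given in the sources used here. Wnt2b, Wnt6 and Wnt2 stayed below 0.6 FPKM in every library, with log2 fold changes of 0.05, 0.03 and -0.05, and Wnt6 and Wnt2 had 39 and 24 reads in all 6 libraries together. Among the 11 ligands below the filter, Wnt10b and Wnt4 had 28 and 27 reads in all and overlapped between the groups. Wnt7b, Wnt8b, Wnt16, Wnt7a and Wnt8a had between 1 and 10 reads in all. For the 4 ligands without a read, 3 reads would correspond to an FPKM between 0.0573 and 0.0895, depending on gene length and library. By counting error alone a count of 0 makes a higher level unlikely but does not exclude it.

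**Figure D2:**
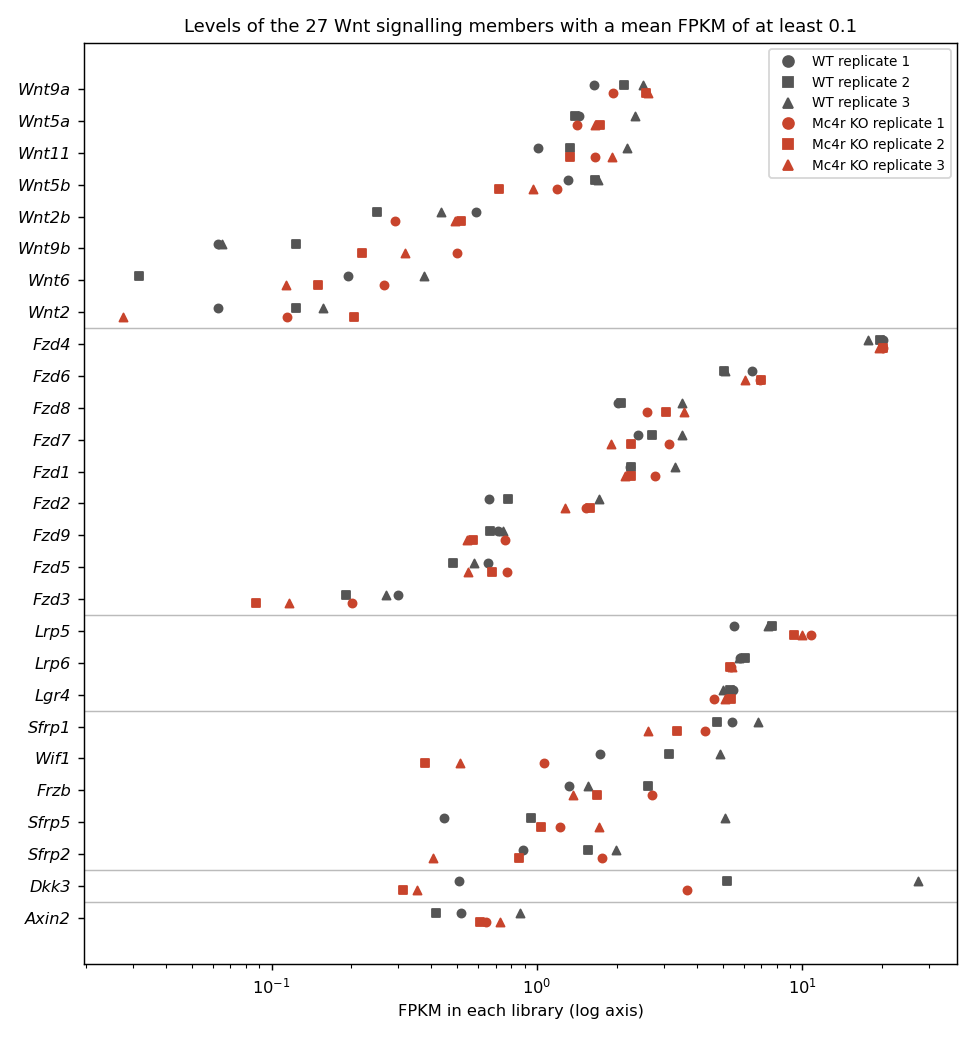
Each point is the FPKM of a member in 1 library, on a log axis, for the 27 members with a mean FPKM of at least 0.1; WT libraries are grey, Mc4r KO libraries red, and the marker gives the replicate number. Fzd4 lies highest of the receptors, between 17.7 and 20.2 FPKM in every library, and Dkk3 spreads the most, from 0.314 to 27.2.

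Frizzled receptors were the most abundant class. They summed to 35.6, 34.0 and 36.5 FPKM in WT and to 38.8, 37.6 and 35.7 in Mc4r KO, with 9 of 10 genes above the filter. None of the 9 passed p under 0.05 before adjustment, and the median log2 fold change was 0.05. Fzd4, known as the receptor for Norrin in vessels of the eye and for several Wnt ligands, was the most abundant member of all (ENSMUSG00000049791; chromosome 7, 89404355 to 89413134). It had 20.2, 19.7 and 17.7 FPKM in WT and 20.1, 20.1 and 19.5 in Mc4r KO, on 1898 to 2102 reads per library. This was the narrowest interval of any member, with a log2 fold change of 0.05 and a 95% interval from -0.14 to 0.25 (adjusted p = 0.749, limma). With the sum outside the mitochondrial chromosome as the scale its sign turned, to -0.14, and quantile normalization gave -0.05.

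Fzd6, a receptor best known for the orientation of hair follicles and of other cell sheets, was second (ENSMUSG00000022297; chromosome 15, 39006034 to 39038188). It had 6.46, 5.09 and 5.12 FPKM in WT and 6.90, 6.97 and 6.09 in Mc4r KO, and only WT replicate 1 reached into the range of the Mc4r KO libraries. On the log2 scale it was higher by 0.26 ± 0.13 (SE), with p = 0.0739 before and 0.288 after adjustment in limma and an exact permutation p of 0.2.

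Fzd2, a receptor of Wnt5a and other ligands, was chosen for description after its values were seen (ENSMUSG00000050288; chromosome 11, 102604396 to 102608058). It had 0.658, 0.779 and 1.72 FPKM in WT and 1.53, 1.58 and 1.28 in Mc4r KO, so that WT replicate 3 was the highest library while the other WT libraries were the lowest. Its log2 fold change was 0.55 ± 0.33 (SE), with an adjusted p of 0.389 from limma. Without WT replicate 3 it was 0.93 with an adjusted p of 0.0415, the only call among the members in any fit that left out a library. That fit called 632 of 18035 genes tested, beside 83 in the main fit. The other receptors overlapped between the groups. Fzd8, Fzd7 and Fzd1 had means over the 6 libraries of 2.81, 2.66 and 2.50 FPKM, while Fzd9, Fzd5 and Fzd3 had 0.666, 0.619 and 0.194, and Fzd10 had 4 reads in all. The log2 fold changes of these 6 receptors lay between -0.60, for Fzd3, and 0.30, for Fzd8, and 17.8% of the exonic bases of Fzd5 overlap an exon on the other strand.

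Lrp5 was higher in the Mc4r KO hearts before adjustment, and Lrp6, the co-receptor most like it, was not. Lrp5, which is best known for its part in bone mass and in the vessels of the retina, had 5.53, 7.69 and 7.41 FPKM in WT and 10.7, 9.32 and 9.97 in Mc4r KO (ENSMUSG00000024913; chromosome 19, 3584828 to 3686564). All Mc4r KO libraries were above all WT libraries, on 759 to 1622 reads per library. The mean was 6.88 ± 1.18 in WT and 10.01 ± 0.706 in Mc4r KO (SD, n = 3 each), a ratio of 1.46. This gave a log2 fold change of 0.55 ± 0.14 (SE), with p = 0.00593 before and 0.108 after adjustment in limma and an exact permutation p of 0.1. It was 0.35 with the sum outside the mitochondrial chromosome as the scale and 0.32 in limma with the mitochondrial share as a covariate. In the fit with the covariate Lrp5 no longer had p under 0.05 before adjustment, but the groups do not overlap in that share.

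Lrp6 had 5.81, 6.08 and 5.76 FPKM in WT and 5.41, 5.32 and 5.43 in Mc4r KO (ENSMUSG00000030201; chromosome 6, 134446476 to 134566965). The Mc4r KO libraries were all below the WT libraries in FPKM by a small margin. Their reads, before scaling, overlapped, with 1120, 1193 and 1341 in WT and 1147, 1104 and 1192 in Mc4r KO. Its log2 fold change was -0.12, with a 95% interval from -0.33 to 0.08 and an adjusted p of 0.453 from limma. Whether Lrp5 and Lrp6 differed from each other in their response was not tested. Lgr4, a receptor for R-spondins that raises the number of Frizzled receptors at the membrane, lay between 5.02 and 5.47 FPKM in WT and between 4.63 and 5.37 in Mc4r KO, with a log2 fold change of -0.07. In WT the 3 genes grouped as co-receptors were thus at like levels, between 5.02 and 7.69 FPKM in every library.

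Wif1 and Sfrp1, the secreted inhibitors with the lowest p, were both lower in the Mc4r KO hearts before adjustment. Wif1, a protein that binds Wnt ligands outside the cell and keeps them from the receptor, had the lowest p of all members (ENSMUSG00000020218; chromosome 10, 121033960 to 121100650). Its FPKM was 1.72, 3.16 and 4.91 in WT and 1.06, 0.380 and 0.514 in Mc4r KO. The groups did not overlap, and the WT libraries spread more than the Mc4r KO libraries, on 59, 110 and 203 reads against 40, 14 and 20. The mean was 3.26 ± 1.60 in WT and 0.652 ± 0.361 in Mc4r KO (SD, n = 3 each), a ratio of 5.01. The log2 fold change was -2.15 ± 0.44 (SE), with a 95% interval from -3.19 to -1.11. The p was 0.0017 before and 0.0766 after adjustment in limma, and 0.1 in the exact permutation test. Wif1 passed the threshold of a call in limma voom on the reads (adjusted p = 0.0328), in limma with array weights (adjusted p = 0.0404) and in limma on protein-coding genes alone (adjusted p = 0.0399), and its adjusted p lay between 0.0328 and 0.293 over all 17 alternatives. Its unadjusted p was under 0.05 in each of the 17. Over all genes tested, the 3 fits that called Wif1 called 317, 435 and 204 in that order, beside 83 in the main fit.

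Sfrp1, a Frizzled-related protein made by fibroblasts and other stromal cells, had 5.43, 4.76 and 6.80 FPKM in WT and 4.30, 3.37 and 2.62 in Mc4r KO (ENSMUSG00000031548; chromosome 8, 23411502 to 23449632). All Mc4r KO libraries were below all WT libraries, and the gap between the groups was smaller than the spread inside each. On the log2 scale the difference was -0.72 ± 0.21 (SE), with p = 0.00951 before and 0.124 after adjustment in limma and an exact permutation p of 0.1. Its unadjusted p was under 0.05 in each of the 17 alternatives, and its adjusted p lay between 0.0491 and 0.350. In limma voom the adjusted p of Sfrp1 and Lrp5 were 0.0491 and 0.0404. Neither was a call, because the log2 fold changes of -0.745 and 0.552 stayed within the threshold of 0.75, that of Sfrp1 narrowly.

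Some fibroblast markers were lower as well. The 7 markers (Dcn, Lum, Pdgfra, Col1a1, Col1a2, Col3a1 and Tcf21) summed to 205, 213 and 218 FPKM in WT and to 177, 158 and 152 in Mc4r KO, without overlap. None was called, and 3 of the 7, Dcn, Lum and Pdgfra, were lower before adjustment, while Col3a1 and Tcf21 overlapped between the groups and Col1a1 and Col1a2 overlapped with fold changes above 0. Without Dcn, the most abundant of the 7, the sums were 79.4, 89.3 and 109 FPKM in WT and 89.5, 81.3 and 68.8 in Mc4r KO and overlapped (a choice made after seeing the data). Dcn had 125, 124 and 109 FPKM in WT and 87.1, 77.1 and 83.0 in Mc4r KO, and its mean was 1.45 times higher in WT, beside 1.65 times for Sfrp1, 1.63 times for Wnt5b and 5.01 times for Wif1. The part of fibroblasts in the values of Wif1, Sfrp1 and Wnt5b was not tested, and in whole tissue fewer cells of a type and less RNA per cell cannot be told apart.

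**Figure D3:**
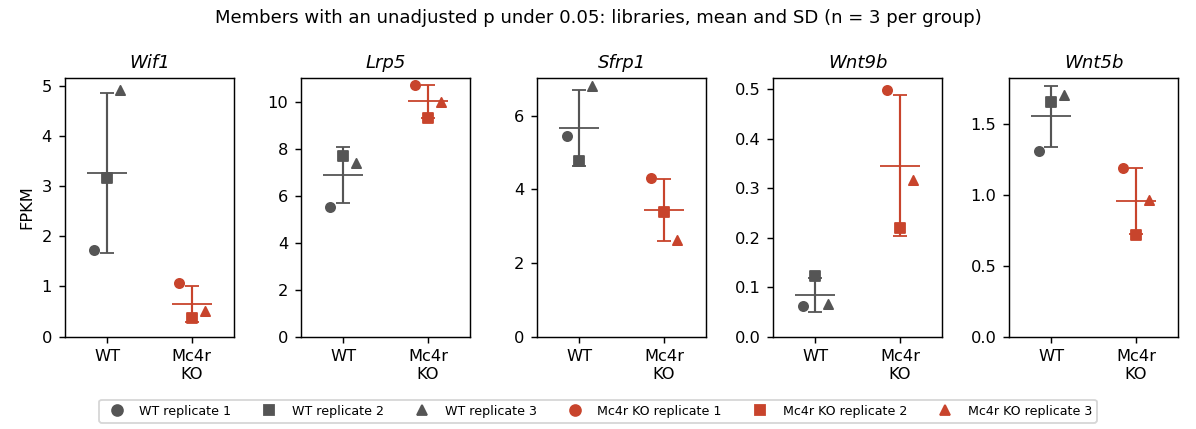
Points give the FPKM of each library on axes that start at 0, the horizontal bar the mean and the whisker the SD (n = 3 per group), for the 5 members with an unadjusted p under 0.05 in limma. In each panel all Mc4r KO libraries lie on one side of all WT libraries, above them for Lrp5 and Wnt9b and below them for Wif1, Sfrp1 and Wnt5b, and none of the 5 has an adjusted p under 0.05.

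The other inhibitors of this class overlapped between the groups. Frzb, the founding Frizzled-related protein, ranged from 1.32 to 2.62 FPKM in WT and from 1.37 to 2.71 in Mc4r KO, with a log2 fold change of 0.07. Sfrp2, which is made by fibroblasts and has an exon on the other strand over 16.1% of its exonic bases, ranged from 0.889 to 1.99 FPKM in WT and from 0.405 to 1.77 in Mc4r KO, with a log2 fold change of -0.64 and an adjusted p of 0.505 from limma. Sfrp4 had 16 reads in all. Summed over the 6 genes, the Wnt-binding inhibitors came to 9.84, 13.1 and 20.4 FPKM in WT and to 11.1, 7.41 and 6.62 in Mc4r KO, so that the sums overlapped although Wif1 and Sfrp1 did not.

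Dkk3 and Sfrp5 varied more between libraries than between groups. Dkk3, a Dkk relative that does not act on the co-receptors in the way Dkk1 does, had 0.507, 5.20 and 27.2 FPKM in WT and 3.68, 0.314 and 0.353 in Mc4r KO (ENSMUSG00000030772; chromosome 7, 112116017 to 112159057). It was high in WT replicates 2 and 3 and Mc4r KO replicate 1 and below 1 FPKM in the other 3 libraries. Its log2 fold change was -2.32 ± 1.42 (SE), with an adjusted p of 0.403 from limma. It was -1.01 without WT replicate 3, -3.75 without WT replicate 1, -3.36 without Mc4r KO replicate 1 and -6.18 with the mitochondrial share as a covariate, with adjusted p between 0.275 and 0.683 over all 17 alternatives and p under 0.05 before adjustment in 2 of them, without WT replicate 1 and with the covariate. The atrial light chain gene Myl7 had 0.240, 28.1 and 307 FPKM in WT and 38.8, 0.558 and 0.528 in Mc4r KO, and was high in the same 3 libraries. So were the atrial markers Myl4 and Sln, with Sln at 0 reads in the 3 libraries that were low in Dkk3. The 5 atrial markers summed to 30.5 to 749 FPKM in WT and to 8.30 to 138 in Mc4r KO, none was called, and Nr2f2 lay between 1.61 and 2.02 FPKM in all 6 libraries. The part of atrial tissue in the Dkk3 values was not tested.

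Sfrp5, a Frizzled-related protein known from the first progenitors of the heart and from fat tissue, was chosen for description after its values were seen. It had 0.448, 0.953 and 5.13 FPKM in WT and 1.22, 1.04 and 1.71 in Mc4r KO (ENSMUSG00000018822; chromosome 19, 42197971 to 42202252), so that WT replicate 3 was the highest library and WT replicate 1 the lowest. Its log2 fold change was -0.05 ± 0.75 (SE) with an adjusted p of 0.982 from limma. It became 0.88 without WT replicate 3, -0.75 without WT replicate 1 and -2.55 with the mitochondrial share as a covariate, the only alternative in which Sfrp5 had p under 0.05 before adjustment (adjusted p = 0.128, limma). The 6 epicardial or mesothelial markers were likewise each highest in WT replicate 3, where they summed to 30.3 FPKM against 5.32 to 8.42 in the other 5 libraries, and Upk3b, a gene of the uroplakin family made by the lining of the heart, had 11.6 FPKM there against 1.72 to 2.78. Of the 5 atrial markers, 4 were also highest there. So were 4 of 4 Schwann cell, 3 of 4 B cell, 3 of 4 red cell and 4 of 7 fibroblast markers, but 0 of 6 cardiomyocyte and 0 of 6 endothelial markers. The part of any of these cell types in the Sfrp5 value was not tested.

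**Figure D4:**
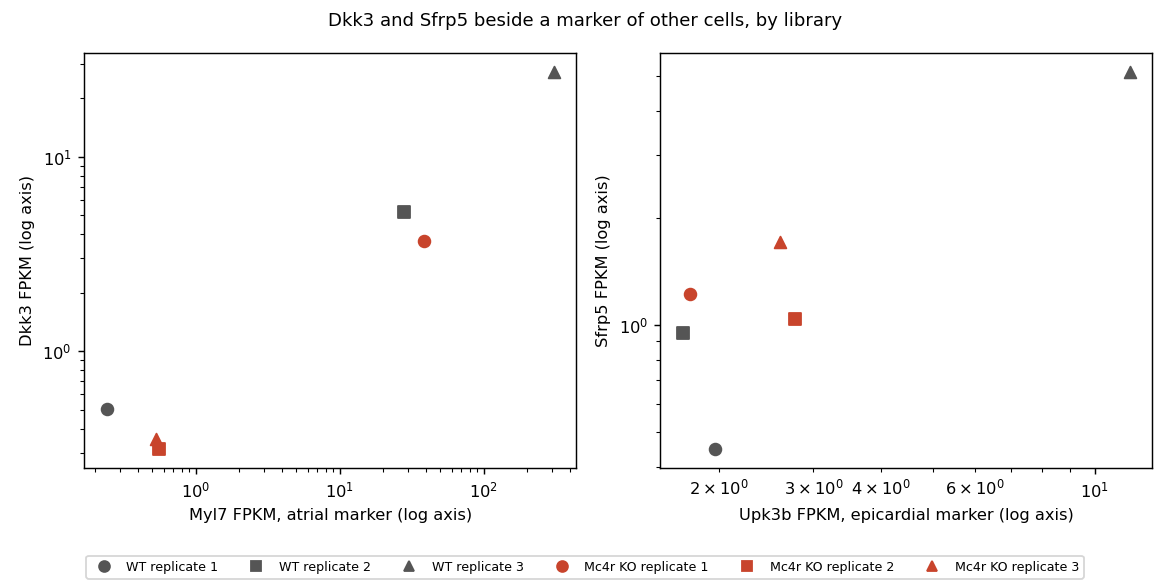
Each point is 1 library on log axes, with the FPKM of Dkk3 against that of the atrial marker Myl7 on the left and the FPKM of Sfrp5 against that of the epicardial marker Upk3b on the right. WT replicate 3 is the highest library for all 4 genes, and Dkk3 is above 3 FPKM in the 3 libraries in which Myl7 is above 28.

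Dkk2 was next to Dkk3 in level but had only 11 reads in all, with 2, 3 and 3 in WT and 1, 1 and 1 in Mc4r KO. No fold is given, since every library was at or under 3 reads. Dkk1, the classical blocker of Lrp5 and Lrp6, had 1 read in Mc4r KO replicate 1 and none elsewhere, and Dkk4 had none in any library.

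Axin2, a scaffold of the beta-catenin destruction complex and a direct target of the pathway, is widely used as its readout (ENSMUSG00000000142; chromosome 11, 108920349 to 108950783). It had 0.515, 0.417 and 0.864 FPKM in WT and 0.644, 0.610 and 0.725 in Mc4r KO, with WT replicate 3 the highest library and the other WT libraries the lowest. The log2 fold change was 0.17, with a 95% interval from -0.47 to 0.81 and an adjusted p of 0.766 from limma. The interval takes in changes in either direction, so that neither a rise nor a fall within it can be set aside. It was 0.00 when scaled to the sum outside the mitochondrial chromosome, -0.48 with the mitochondrial share as a covariate, -0.02 without WT replicate 2 and 0.43 without WT replicate 3, with adjusted p of at least 0.251 in every alternative in which it was tested. An exon on the other strand covers 3.80% of its exonic bases.

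The rest of the pathway was described by a list of 79 other genes, of which 71 were tested and none was called. Before adjustment 6 passed p under 0.05 above 0 (8.45%, beside 12.0% of all genes tested) and 4 below (5.63%, beside 8.83%), so that both shares were below the background. A fold change above 0 was seen for 31 of the 71 (43.7%, beside 48.8% of all genes tested), and the median log2 fold change was -0.06. Among the 7 genes of Wnt release and removal, Trabd2b (Tiki2), a membrane protease that cuts and disables Wnt ligands, was higher at 24.8 ± 3.15 FPKM in Mc4r KO against 19.1 ± 2.47 in WT (SD, n = 3 each; adjusted p = 0.183, limma). Gpc6, a glypican that holds Wnt at the cell surface, was lower, at 1.44 ± 0.193 FPKM against 2.27 ± 0.371 in WT (SD, n = 3 each; adjusted p = 0.121, limma). Without WT replicate 3, where 632 of 18035 genes were called, Gpc6 was called too (log2 fold change -0.75, adjusted p = 0.0468, limma). Of the 8 genes tested among R-spondins and regulators of receptor turnover, Kremen1, the receptor with which Dkk1 removes Lrp6 from the membrane, was higher and had the lowest adjusted p of the list. It had 15.0, 18.8 and 17.3 FPKM in WT and 21.2, 24.3 and 24.3 in Mc4r KO, with a log2 fold change of 0.45 ± 0.11 (SE) and an adjusted p of 0.0996 from limma. None of the 16 genes of alternative receptors and planar polarity passed p under 0.05 before adjustment, with adjusted p from 0.296 to 0.993.

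Inside the cell, Apc and Gsk3a, both parts of the beta-catenin destruction complex, lay on opposite sides before adjustment. Apc, its large scaffold, had 4.66 ± 0.478 FPKM in WT and 3.64 ± 0.0871 in Mc4r KO (SD, n = 3 each; adjusted p = 0.151, limma), and Gsk3a, a kinase that marks beta-catenin for destruction, had 12.6 ± 1.82 in WT and 15.8 ± 0.322 in Mc4r KO (SD, n = 3 each; adjusted p = 0.164, limma). They were the only genes below p of 0.05 before adjustment among the 17 of cytoplasmic transduction. Of the 13 nuclear effectors tested, 3 were higher (23.1%, beside 12.0% of all genes tested) and none lower before adjustment, a small number of genes: Pygo1 and Bcl9l, which link beta-catenin to transcription, and the co-repressor Ctbp1. Pygo1 had 2.71 ± 0.126 FPKM in WT and 3.88 ± 0.708 in Mc4r KO, and Bcl9l had 4.99 ± 0.990 and 6.79 ± 0.545, with adjusted p of 0.133 and 0.175 from limma (SD, n = 3 each). The scale set by the sum outside the mitochondrial chromosome left the log2 fold changes of Trabd2b, Kremen1, Gsk3a, Pygo1, Bcl9l and Ctbp1 above 0, between 0.05 and 0.30, and the p of each was then above 0.05. Among 10 beta-catenin target genes tested, 2 were lower before adjustment, beside 8.83% of all genes tested, which is also few genes. Tnfrsf19, a receptor of the TNF family, had 0.569, 0.691 and 1.03 FPKM in WT and 0.299, 0.403 and 0.329 in Mc4r KO, without overlap (log2 fold change -0.93, adjusted p = 0.125, limma). Ccnd1, which encodes cyclin D1, had 12.9, 12.4 and 11.5 FPKM in WT and 9.95, 9.99 and 6.23 in Mc4r KO, also without overlap (log2 fold change -0.52, adjusted p = 0.186, limma). The median log2 fold change of these 10 was -0.24, 3 lay above 0, and many of its genes answer to other pathways as well.

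**Figure D5:**
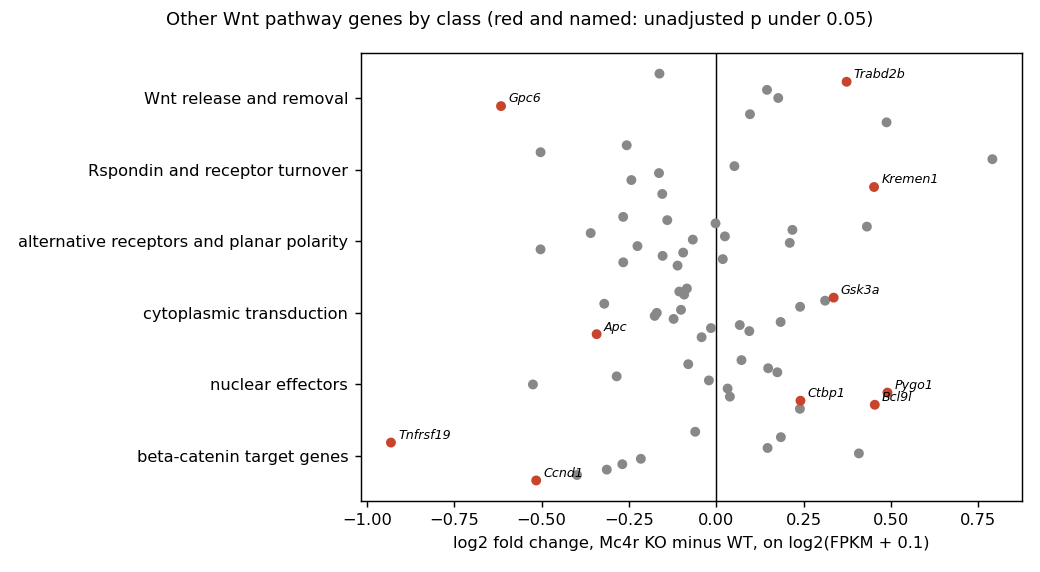
Each point is the log2 fold change, Mc4r KO minus WT, on log2(FPKM + 0.1) of 1 of the 71 other pathway genes tested, by class. The 10 genes in red had an unadjusted p under 0.05 in limma, 6 of them above 0 and 4 below, and none was called.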

How the data were processed

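The authors prepared libraries from polyadenylated RNA, aligned the read pairs with HISAT2 and counted reads on genes with featureCounts. The submitters' processing notes name CASAVA, HISAT2 2.0.5 and mm10. Which annotation release was used, and whether counting was stranded, is not given in the sources used here. The deposited values are FPKM per gene and library; 99.8% of the identifiers were found in GENCODE M21. Multiplied by gene length, 100% of the values were whole multiples of 1 step per library within 0.05 reads, which gave the reads back.

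The members and lists were chosen with earlier results of these data known. Because FPKM are not counts, limma 3.58.1 with trend (R 4.3.3, data.table, version 1.17.8) was fitted to log2(FPKM + 0.1) in all 6 libraries for 18035 genes (mean FPKM 0.1 or more), without covariates, with two-sided p and Benjamini-Hochberg adjustment over all of them. The fold threshold follows the study's methods. The script was tested on simulated data. p-values measure the spread between mice. Described in full are members with unadjusted p under 0.05, the 2 most abundant of each class, and, of the other pathway genes, up to 3 per class with p under 0.05. Opposite-strand exons and shared words of 50 bases were searched in M21; the words covered at most 0.278% of Wif1, Lrp5, Sfrp1, Wnt9b, Wnt5b and Dkk3. Alternatives were pseudocounts of 1 and 0.01, no filter, a mean FPKM of at least 1, the FPKM sum outside the mitochondrial chromosome as the scale, quantile normalization, limma voom on recovered reads, array weights, protein-coding genes only, the mitochondrial share as covariate, the replicate block, and leaving out each library. Plots used matplotlib 3.10.9 under Python 3.11.15.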

Additional observations from a re-analysis of the deposited data

How the results depend on the processing

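The number of members called was 0 of 27 in limma and became 1 in limma voom on recovered reads, with array weights and on protein-coding genes only (Wif1 in each). It was 0 to 1 when each library was left out in turn, the 1 being Fzd2 without WT replicate 3. All genes called were 317 of 18035 in voom, 435 of 18035 with array weights and 204 of 13546 on protein-coding genes. Without WT replicate 3 they were 632 of 18035, beside 83 in the main fit. Members higher before adjustment numbered 2, 1 with a mean FPKM of at least 1 (where Wnt9b is no longer tested), 1 with the mitochondrial share as covariate (Fzd6), and 2 to 4 without 1 library, with 4 without WT replicate 3. Members lower numbered 3, 7 with the mitochondrial share as covariate (Dkk3, Fzd1, Sfrp5 and Wnt11 being added), and 2 to 4 without 1 library. Of all genes tested, 5.77% were higher and 5.03% lower before adjustment with that covariate, and 17% and 10.7% with a mean FPKM of at least 1. Without WT replicate 3 the shares were 15.4% higher and 12.4% lower. Without each of the other libraries they were 7.81% to 9.35% higher and 5.87% to 6.80% lower. The median log2 fold change of the members was -0.374 with the mitochondrial share as covariate, in which the groups do not overlap. The cause was not tested.

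The genes called among all tested were 83, and 44 with a pseudocount of 1, 22 with no filter, 147 with a mean FPKM of at least 1, 49 with quantile normalization, 41 scaled to the sum outside the mitochondrial chromosome, 317 in limma voom, 435 with array weights, 204 on protein-coding genes only, 2 with the mitochondrial share as covariate, and 0 to 632 without 1 library. They were 632 without WT replicate 3, 7 without Mc4r KO replicate 1, 2 without Mc4r KO replicate 2 and 0 without each of the other 3; the cause was not tested. With the replicate block 11 genes and no member were called, and the same 5 members had p under 0.05. Deviations of same-numbered libraries from their group means correlated at -0.141, 0.007 and -0.082. With 3 libraries per group, these correlations cannot show whether the numbers pair the mice.

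Of 405 fold changes of 24 named genes under 17 alternatives, 385 kept direction and side of the threshold, 5 became calls and 15 changed sign. The sign changes were Wnt9a at -0.00463 (sum outside the mitochondrial chromosome) and -0.156 (mitochondrial share), Wnt5a at 0.057 (array weights), 0.162 (without WT replicate 3) and 0.013 (without Mc4r KO replicate 1), Fzd4 at -0.052 (quantile), -0.141 (sum outside the mitochondrial chromosome) and -0.00219 (without WT replicate 3), Axin2 at -0.477 (mitochondrial share) and -0.023 (without WT replicate 2), Fzd2 at -0.374 (mitochondrial share), and Sfrp5 at 0.021 (quantile), 0.326 (array weights), 0.878 (without WT replicate 3) and 0.096 (without Mc4r KO replicate 2). Over the 6 fits without 1 library the range was -0.193 to 0.162 for Wnt5a, -0.00219 to 0.0914 for Fzd4, -0.0232 to 0.426 for Axin2 and -0.75 to 0.878 for Sfrp5. None of these sign changes was a call; among the members tested, Wnt9b, Wnt6 and Wnt2 have libraries with fewer than 10 reads.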
